A study of Mus musculus with 16 samples.

Results

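This account covers 98 odorant receptor genes of mouse chromosome 2, those named Olfr1141 to Olfr1270, as measured in sorted cells of the olfactory mucosa. The rule for members used position and name, and it was set with earlier results of these data known. It took gene probesets that the array places on chromosome 2 and whose annotated symbol lies in that number range, with pseudogenes left out. Each member has 1 probeset, so there were 98 of 22206 gene probesets in all, 98 of 1080 odorant receptor probesets and 98 of 282 odorant receptor probesets of chromosome 2. No pseudogene probeset fell in the range (0).

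Odorant receptors are G protein-coupled receptors that sit in the cilia of olfactory sensory neurons and bind volatile molecules. A mature sensory neuron expresses a single allele of a single receptor gene, so the level of a receptor transcript in a mixed cell sample follows the number of neurons that chose it and the amount each makes. Receptor genes lie in clusters, and the largest cluster of class II receptors in the mouse is on chromosome 2. The MOR names used below sort receptors into families by protein sequence, and neighbouring genes are often family members that arose by duplication. Bound receptors act through the G protein subunit Gnal and the adenylyl cyclase Adcy3 to open the cyclic nucleotide-gated channel.

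The cells came from S100a5-tauGFP mice, in which green fluorescent protein (GFP) reports S100a5, a calcium-binding protein gene whose expression in sensory neurons depends on their activity. In all, 24 mice of both sexes, aged 7 to 12 weeks, were kept singly under a flow of clean air for 40 h, and from 26 h they were given 10 s pulses of an odorant or of filtered air (vehicle) every 20 min. Mucosa was dissociated, cells of 3 mice were pooled, and each pool was sorted into a GFP+ and a GFP- fraction. This gave 4 groups of 4 arrays: GFP+ and GFP- cells from odorant-exposed mice and GFP+ and GFP- cells from vehicle-exposed mice. All 4 groups carry the reporter, and the 2 fractions of a treatment and replicate number come from the same pool, so 8 pools stand behind 16 arrays. The sources disagree on the odorant: samples are labelled bourgeonal, while the title of the series has indole, so neither name is used here. The design asks which receptors belong to neurons in the GFP+ fraction, and whether that changes when an odorant is given.

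Signals are log2 probeset values, and each probeset has its own scale, so levels are compared between arrays for 1 receptor and not between receptors. A value was called above background when it exceeded the 95th percentile of 23 antigenomic control probesets of its array, a level of 6.57 to 6.87. The reporter gene S100a5 was 15.97 ± 0.26 (SD, n = 4) in GFP+ and 15.04 ± 0.15 in GFP- cells with vehicle, a difference of 0.93, and 15.99 ± 0.31 against 14.85 ± 0.28 with odorant, a difference of 1.14. Omp, which marks mature sensory neurons, was between 18.59 and 18.69 on average in all 4 groups, so both fractions hold the cells that express odorant receptors. Omp alone does not show that the fractions hold equal parts of them, and counts over 14 mature neuron markers are given below.

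Of the 98 receptors, 63 were above background on all 16 arrays, 26 on some arrays and 9 on none. The 9 were Olfr1141, Olfr1145, Olfr1158, Olfr1164, Olfr1188, Olfr1201, Olfr1214, Olfr1230 and Olfr1245. Between 75 and 79 members exceeded background on each GFP+ array and between 82 and 87 on each GFP- array. All gene probesets leaned the same way, with 10369 to 10737 on GFP+ and 11078 to 11308 on GFP- arrays. So did all odorant receptor probesets, with 732 to 798 against 776 to 841. Among the members, 5 receptors (Olfr1163, Olfr1178, Olfr1182, Olfr1184 and Olfr1208) were at background on all 8 GFP+ arrays and above it on all 8 GFP- arrays, and 0 showed the reverse. The share of all gene probesets with either pattern was not counted.

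The first comparison set GFP+ against GFP- cells within each treatment, and the cluster split in both directions. With vehicle, 26 receptors were higher in GFP+ cells and 29 were lower, which is 56.1% of the 98; over all gene probesets 17.7% were called, 7.76% higher and 9.97% lower. With odorant, 31 were higher and 29 lower, 61.2% of the 98, beside 11.4% of all gene probesets, 3.57% higher and 7.84% lower. Among all 1080 odorant receptor probesets 60.6% were called with vehicle (379 higher, 275 lower) and 58.5% with odorant (368 higher, 264 lower), so the share of called members is near that of odorant receptors in general. The neighbouring chromosome 2 receptors Olfr980 to Olfr1140 had 52 higher and 18 lower of 104 with vehicle; the difference between the sets was not tested. The median difference over the members was 0.02 with vehicle and 0.11 with odorant, beside 0.08 and 0.10 over all gene probesets and 0.27 and 0.33 over all odorant receptors. In these sorted bulk samples, fewer neurons that express a receptor and less receptor RNA per neuron cannot be told apart.

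The threshold was an adjusted p of 0.05 in limma, adjusted by Benjamini-Hochberg across every gene probeset. Array medians were 6.29 to 6.38 in GFP+ and 6.64 to 6.76 in GFP- cells, and when each array's median was subtracted the median difference of all genes rose from 0.08 to 0.45 with vehicle and from 0.10 to 0.42 with odorant. The vehicle split of the members then became 39 higher and 28 lower (58.2% of calls higher, against 47.3% as deposited) and the odorant split 36 and 27. No called member turned its direction between these scalings (0 of 55 calls with vehicle and 0 of 60 with odorant), and 54 and 58 of the calls were kept. Changes of sign among members not called were not counted.

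**Figure D1:**
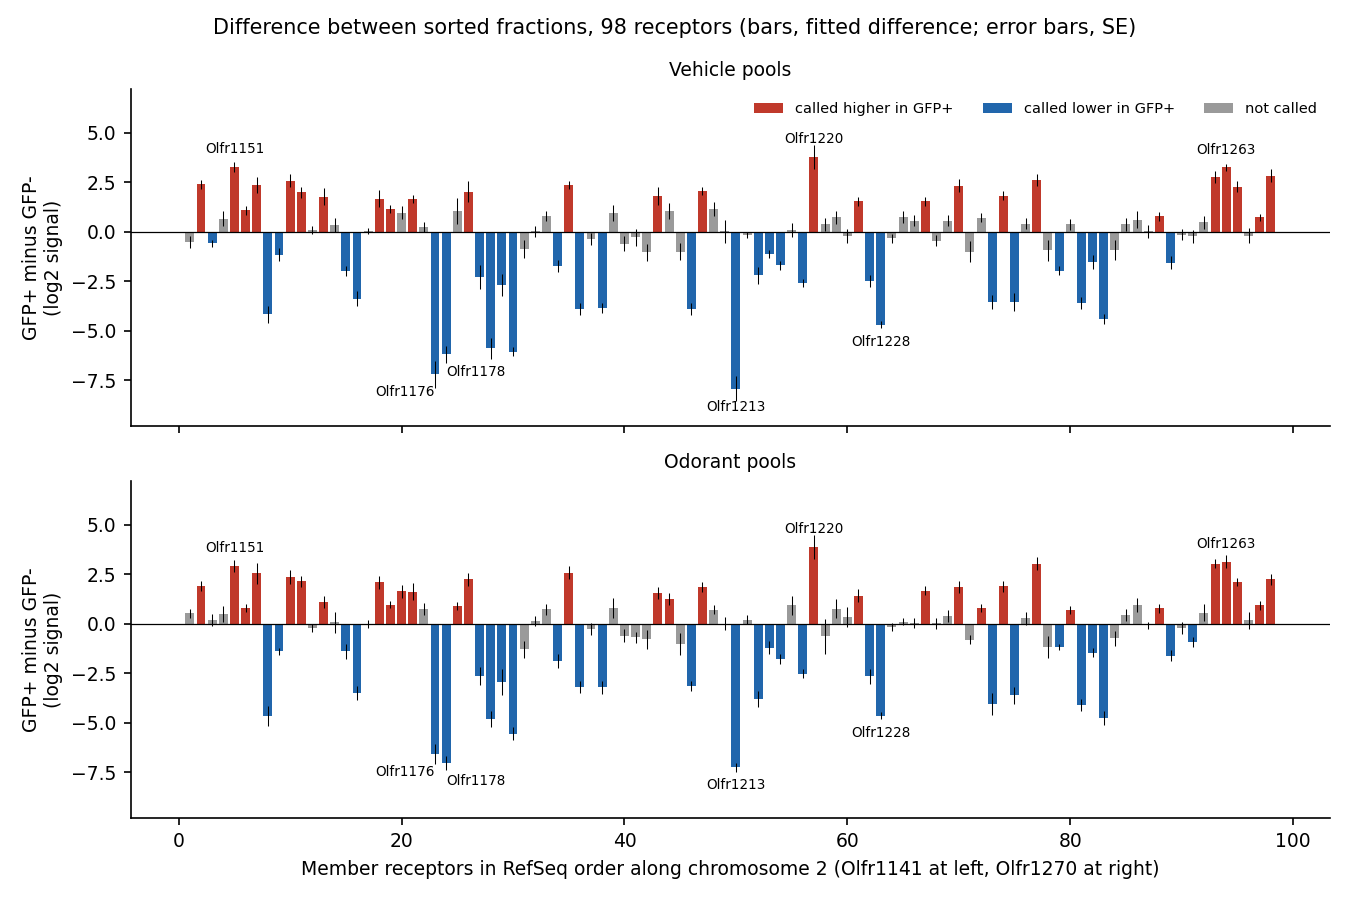
Fitted GFP+ minus GFP- difference (log2 signal, y axis) of the 98 receptors in their order along chromosome 2 (x axis, position in the order), with vehicle above and odorant below. Bars are coloured by call and error bars are standard errors. The deepest bars, Olfr1176, Olfr1178 and Olfr1213, and the highest, Olfr1220, stand at the same places in both panels.

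The rises were led by Olfr1220, a receptor of the MOR233 family. With vehicle its signal was 14.27, 13.07, 15.53 and 15.28 on the 4 GFP+ arrays and 10.69, 9.30, 11.89 and 11.14 on the 4 GFP- arrays. Every GFP+ array lay above every GFP- array, and the difference was 3.78 (SE 0.60, adjusted p = 0.0014), a fold of 13.8. In the separate odorant pools the GFP+ values were 14.90, 12.43, 14.38 and 14.30, the GFP- values 11.03, 8.53, 10.60 and 10.40, and the difference 3.86 (SE 0.59), a fold of 14.5. The fraction gap was thus of like size in both treatments, while the level moved by pool.

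Olfr1151, of the MOR177 family, was the next largest rise with vehicle. Its vehicle signals were 10.95, 10.09, 10.97 and 11.40 in GFP+ and 7.37, 7.39, 7.66 and 7.85 in GFP- cells, a difference of 3.28 (SE 0.25, adjusted p = 9.6e-06). With odorant they were 10.93, 9.65, 10.61 and 11.32 against 8.05, 7.44, 7.70 and 7.73, a difference of 2.90. The 8 GFP- values, from 7.37 to 8.05, were all above the background level, and the 8 GFP+ values all lay above them.

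Olfr1263 and Olfr1262, both MOR234 and adjacent on the chromosome, rose together. Olfr1263 read 13.65, 13.52, 13.68 and 14.03 in GFP+ and 10.09, 10.61, 10.56 and 10.66 in GFP- cells with vehicle, a difference of 3.24 (SE 0.17, adjusted p = 1.0e-06) and a fold of 9.45; with odorant the difference was 3.13. Olfr1262 read 13.95, 14.45, 13.70 and 13.86 against 10.56, 10.74, 11.75 and 11.82 with vehicle, a difference of 2.77, and 3.03 with odorant. For both, the lowest of 8 GFP+ arrays lay more than 1 log2 unit above the highest of 8 GFP- arrays, by 1.91 for Olfr1263 and 1.88 for Olfr1262. The next gene on that side, Olfr1264 of MOR236, was higher by 2.28 and 2.10, and the last member of the set, Olfr1270 of MOR227, by 2.82 and 2.25.

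The other large rises spread along the cluster. Olfr1246 (MOR231) was higher by 2.62 with vehicle and 3.03 with odorant, with GFP+ arrays between 10.17 and 10.93 and GFP- arrays between 6.91 and 8.59. Olfr1156 (MOR174) was higher by 2.56 and 2.36, Olfr1143 (MOR177) by 2.38 and 1.90, Olfr1153 (MOR177) by 2.37 and 2.54, and Olfr1195 (MOR230) by 2.36 and 2.58. These 4 kept their 8 GFP+ arrays above their 8 GFP- arrays.

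The largest falls were greater in size than the largest rises. Olfr1213, like Olfr1220 of MOR233, read 3.67, 7.41, 4.84 and 5.74 in GFP+ and 12.93, 13.61, 13.69 and 13.16 in GFP- cells with vehicle. Only 1 of those GFP+ arrays exceeded background, so the fitted difference of -7.93 (SE 0.63, adjusted p = 1.1e-05) is given as a fold of at least 91.0, with the background level in place of lower GFP+ values. With odorant the GFP+ arrays read 6.55, 6.27, 5.69 and 6.26, all at background, and the GFP- arrays 13.86, 13.44, 13.36 and 13.11, a difference of -7.25 and a fold of at least 102. Among all 8 arrays of each fraction, the gap between the highest GFP+ and the lowest GFP- value was 5.52, the widest of the set.

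Olfr1176 (MOR174) and its neighbour Olfr1178 (MOR225) came next. Olfr1176 read 5.33, 8.08, 4.53 and 5.26 against 13.46, 13.68, 13.03 and 11.80 with vehicle, a difference of -7.19 (SE 0.68, adjusted p = 3.9e-05; at least 63.5-fold lower), and -6.58 with odorant. Olfr1178 read 5.17, 6.35, 3.92 and 5.23 against 11.43, 10.72, 11.67 and 11.55, a difference of -6.18 (at least 25.8-fold lower), and -7.03 with odorant. In GFP+ cells Olfr1178 was at background on all 8 arrays and Olfr1176 on all but 2.

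Olfr1184 and Olfr1182, also MOR225, had the same form. Olfr1184 read 4.08, 3.76, 3.99 and 3.71 in GFP+ and 9.25, 10.15, 10.07 and 10.30 in GFP- cells with vehicle, a difference of -6.06 (SE 0.22, adjusted p = 7.9e-08; at least 9.80-fold lower). Olfr1182 read 4.71, 3.65, 3.19 and 5.39 against 9.10, 9.61, 10.87 and 10.92, a difference of -5.89 (at least 11.1-fold lower). With odorant the differences were -5.55 and -4.82.

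Of the other large falls named here, all but Olfr1208 left a signal above background on some or all GFP+ arrays. Olfr1228 (MOR233) was above background on every array: 9.06, 9.02, 8.67 and 9.34 in GFP+ against 13.82, 13.29, 13.93 and 13.82 in GFP- cells with vehicle. Its difference of -4.69 (SE 0.19, adjusted p = 1.2e-07) is a fold of 25.8, and with odorant it was -4.64, a fold of 25.0. Olfr1252 (-4.40 and -4.76), Olfr1154 (-4.17 and -4.66), Olfr1196 (-3.88 and -3.21), Olfr1250 (-3.59 and -4.11) and Olfr1241 (-3.55 and -4.05) also passed the threshold in both treatments, as did Olfr1208 (-3.89 and -3.14), which was at background on all GFP+ arrays. Olfr1252 was above background on 5 of 8 GFP+ arrays, Olfr1154 and Olfr1241 on 6, and Olfr1196 and Olfr1250 on all 8.

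**Figure D2:**
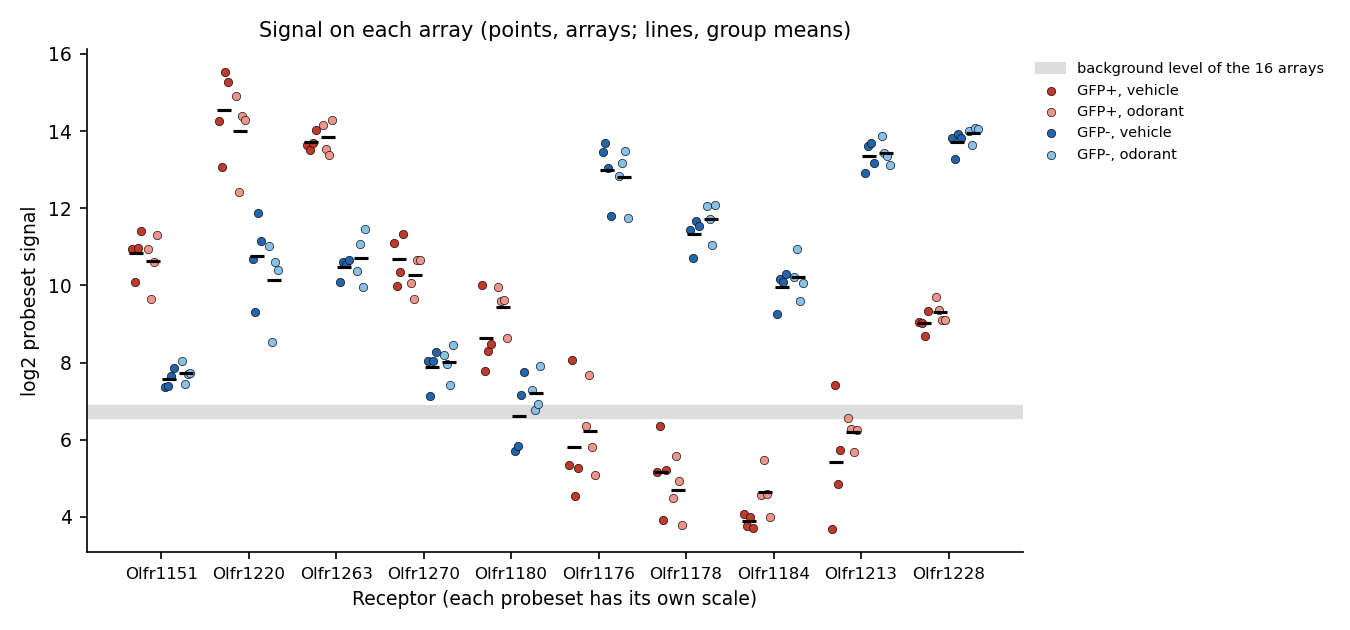
Log2 signal (y axis) of 10 receptors on each of the 16 arrays: points are arrays, coloured by group, lines are group means and the grey band spans the background levels. The GFP+ points of Olfr1176, Olfr1178, Olfr1184 and Olfr1213 lie in or under the band on all 8 arrays for Olfr1178 and Olfr1184, on all but 1 for Olfr1213 and on all but 2 for Olfr1176, whereas those of Olfr1228 stay above it.

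Counted over both treatments, 22 members had all 8 GFP+ arrays above all 8 GFP- arrays (2.83% of all gene probesets did) and 24 had them all below (6.36% of all gene probesets). These are 22.4% and 24.5% of the members, near the 26.7% and 20.2% of all odorant receptor probesets. The gap was 0.04 to 1.91 log2 units in the 22, with a median of 0.70, and 0.18 to 5.52 in the 24, with a median of 1.94. Of the called members, 12 with vehicle and 11 with odorant have a fold that is a lower bound, since a group lay at background on all 4 arrays or had a mean at or under the mean background level. Olfr1145 with vehicle and Olfr1248 with odorant were called while both groups were at background, so no fold is given for either.

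Markers of other cell types were also lower in GFP+ than in GFP- cells, beside the receptor falls. Immune markers were lower in GFP+ cells for 10 of 10 probesets in both treatments, with a summed level (log2 of the added signals) of 9.76 to 10.98 in GFP+ and 15.61 to 17.27 in GFP- cells with vehicle; S100a8, a neutrophil gene, was at least 280.9-fold lower. Of 10 immature neuron markers 8 were lower with vehicle and 7 with odorant (summed level 16.41 to 16.61 against 16.92 to 17.14 with vehicle). Gap43, a growth cone protein, was lower by 2.59 on the log2 scale and Gng8, a G protein subunit of young neurons, was at background in GFP+ cells. Of the microvillar and tuft cell markers 7 of 7 were lower in both treatments (summed level with vehicle 7.91 to 8.43 against 11.59 to 13.10). Of the progenitor and dividing cell markers 5 of 6 were lower in both (with vehicle 7.15 to 7.73 against 9.82 to 11.93). Of the sustentacular markers 6 of 8 were lower with vehicle (15.40 to 15.81 against 16.75 to 17.28). With odorant 2 of 8 were, and the summed levels overlapped (14.56 to 16.57 against 16.33 to 17.97). Of the Bowman gland markers 3 of 6 were lower in both treatments (with vehicle 10.09 to 11.76 against 12.26 to 12.89). Their summed levels also overlapped with odorant (11.49 to 12.94 against 12.11 to 14.04). The 5 horizontal basal and 3 respiratory ciliated markers were at background on all 16 arrays. So were 3 of the 6 progenitor, 2 of the 7 microvillar and tuft and 1 of the 10 immune probesets. The lower calls of Neurog1, Cdk1, Chat, Gnat3 and Ms4a1 are therefore between values at background. Of 14 mature neuron markers, 4 were higher and 0 lower in GFP+ cells with vehicle, and 2 and 0 with odorant. With array medians subtracted, 9 of 10 immune markers were lower, and 1 immature neuron and 1 sustentacular marker were called higher with vehicle. Under that scaling 10 of the 14 mature neuron markers were higher with vehicle and 11 with odorant, and 0 were lower. The part of any of these cell types in the receptor differences was not tested.

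Genes that receptors work with were counted in the same comparison. Of 23 probesets of the transduction and receptor folding list, 6 were higher and 2 lower in GFP+ cells with vehicle, and 2 and 2 with odorant, with a median difference of 0.13 and 0.15. The 6 were Adcy3 (0.41), the chloride channel Ano2 (0.57), the exchanger Slc24a4 (0.61), the phosphodiesterases Pde1c (0.65) and Pde4a (0.65) and, at background in both groups, Camk4 (0.76). Gnas (-4.25), the stimulatory G protein of immature neurons and other cells, and Pde2a (-2.92), a phosphodiesterase of a separate neuron class, were lower. Of 12 genes with roles in receptor choice, 3 were higher with vehicle, the transcription factors Ebf1 (0.44) and Emx2 (0.48) and Adcy3. With odorant 0 of the 12 were called higher, and these 3 were at 0.09, 0.18 and 0.23. Lbr (-1.08 with vehicle), a nuclear envelope protein whose loss accompanies receptor gene clustering, was lower in both treatments as deposited. With array medians subtracted, 17 of the 23 and 7 of the 12 were higher with vehicle, and 2 and 1 were lower. With odorant the same scaling gave 15 and 4 higher, and 2 and 0 lower.

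Promoter windows of a few members are described next, and their relation to the direction of a difference was not tested. Receptor promoters are known to hold homeodomain sites, bound by Lhx2 and Emx2, and Olf/Ebf sites. Most RefSeq models of the members span only the coding region (66 of 98), so their start is not a transcription start; 89 members had a promoter entry and 7 had a model spanning at least 2000 bases. For those 7 the 250 bases before the RefSeq start (build GRCm38.p6) were searched on both strands for TAATTA and TAATTG, letters of the homeodomain site that share their first 5 bases, and for CCCNNGGG, letters of the Olf/Ebf site. Of the 7, the 5 that were called in both treatments are shown, read 5′ to 3′ on the gene's strand with matches in capitals. Olfr1157 (chr2:87968258-87968507, minus strand) and Olfr1205 (chr2:88829507-88829756, plus strand) were higher in GFP+ cells.
Olfr1157: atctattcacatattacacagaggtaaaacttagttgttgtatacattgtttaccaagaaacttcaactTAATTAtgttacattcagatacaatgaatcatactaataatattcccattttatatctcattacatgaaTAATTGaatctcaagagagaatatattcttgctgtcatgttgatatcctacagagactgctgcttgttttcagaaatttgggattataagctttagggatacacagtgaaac
Olfr1205: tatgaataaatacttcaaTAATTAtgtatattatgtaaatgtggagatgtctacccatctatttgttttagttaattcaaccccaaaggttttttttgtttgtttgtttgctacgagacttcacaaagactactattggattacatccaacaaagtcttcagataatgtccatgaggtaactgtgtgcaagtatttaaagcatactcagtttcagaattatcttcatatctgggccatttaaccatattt
Olfr1213 (chr2:88980268-88980517, minus strand), Olfr1182 (chr2:88449122-88449371, minus strand) and Olfr1241 (chr2:89483134-89483383, minus strand) were lower in GFP+ cells.
Olfr1213: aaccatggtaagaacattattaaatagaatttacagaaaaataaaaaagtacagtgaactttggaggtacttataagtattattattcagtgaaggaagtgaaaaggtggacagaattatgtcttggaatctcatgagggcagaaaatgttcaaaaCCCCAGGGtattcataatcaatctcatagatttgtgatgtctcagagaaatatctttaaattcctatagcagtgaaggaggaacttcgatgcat
Olfr1182: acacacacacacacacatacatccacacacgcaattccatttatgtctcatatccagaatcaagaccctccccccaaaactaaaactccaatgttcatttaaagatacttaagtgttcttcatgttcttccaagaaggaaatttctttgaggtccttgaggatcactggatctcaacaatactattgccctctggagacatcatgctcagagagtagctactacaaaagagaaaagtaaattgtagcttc
Olfr1241: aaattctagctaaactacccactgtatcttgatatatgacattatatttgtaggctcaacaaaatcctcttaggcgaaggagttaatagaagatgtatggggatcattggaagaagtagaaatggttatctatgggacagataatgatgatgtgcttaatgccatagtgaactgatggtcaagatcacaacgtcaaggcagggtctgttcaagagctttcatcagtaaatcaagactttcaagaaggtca
The window of Olfr1157 held TAATTA starting at -181 and TAATTG at -112, counted back from the start. That of Olfr1205 held TAATTA at -232, and that of Olfr1213 held CCCNNGGG at -94. The 2 windows not shown belong to receptors called in neither treatment. Of these, Olfr1199 held TAATTG at -74 and Olfr1223 held CCCNNGGG at -174. Each of the 3 motifs was thus in 2 of the 7 member windows. Over 27025 windows of the same length from all genes, TAATTA was in 4.9%, TAATTG in 7.34% and CCCNNGGG in 11.7%. The 7 member windows are few and were kept by model span, and no share over other odorant receptors is given. Whether the shares differ was not tested. A match is a run of letters and not a bound site, and no match says only that these letters are not in this window.

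Olfr1157 read 11.65, 10.99, 11.03 and 12.23 in GFP+ and 9.48, 9.83, 9.39 and 9.26 in GFP- cells with vehicle. The difference was 1.98 (2.14 with odorant). Olfr1205 read 10.13, 8.91, 10.91 and 10.52 against 8.45, 7.41, 9.08 and 8.32, a difference of 1.80 (1.56 with odorant), with 1 GFP+ array below the highest GFP- array. Both passed the threshold in each treatment.

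RefSeq gives a single MOR family for 95 members, and the counts by family follow as a description, since differences between families were not tested. Of the 11 MOR225 receptors, 7 were lower and 1 higher with vehicle and 7 lower and 2 higher with odorant, with a median difference of -3.85 and -3.14. Of the 5 MOR177 receptors, 4 were higher and 0 lower in both treatments, with a median of 2.37 and 1.90; the fifth, Olfr1141, was at background on all arrays. Of 3 MOR234 receptors, Olfr1262 and Olfr1263 were higher, and Olfr1261 was not called (0.47 and 0.56). The calls in these 3 families had the same split under quantile normalization, and with array medians subtracted they differed by 1 call, Olfr1141 at background counting as higher with odorant.

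The larger families were mixed. MOR233, with 18 members, had 3 higher and 7 lower in both treatments and held both Olfr1220 (3.78 with vehicle) and Olfr1213 (-7.93). MOR231, with 17 members, had 3 higher and 5 lower with vehicle and 5 and 5 with odorant, from Olfr1246 (2.62) to Olfr1250 (-3.59). MOR174, with 12, had 5 higher and 4 lower with vehicle and 6 and 4 with odorant, from Olfr1156 (2.56) to Olfr1176 (-7.19). Of 8 MOR230 receptors 3 were higher and 1 lower in both treatments, and of 7 MOR232 receptors 1 and 1 with vehicle and 2 and 2 with odorant. The medians of MOR231, MOR232 and MOR233 were between -0.225 and 0.01 as deposited and above zero with array medians subtracted, so no direction is given for those families. With array medians subtracted, the vehicle counts became 7 higher and 5 lower in MOR231, 5 and 7 in MOR233 and 2 and 1 in MOR232, and the odorant counts 5 and 5, 4 and 6, and 3 and 1. Outside the families with 3 or more members, Olfr1193 and Olfr1252, without a single MOR name, were lower, and Olfr1264, Olfr1269 and Olfr1270 were higher in both treatments. Olfr1269 is 1 of 2 MOR228 receptors, and the other, Olfr1265, was not called (-0.20 with vehicle and 0.16 with odorant).

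**Figure D3:**
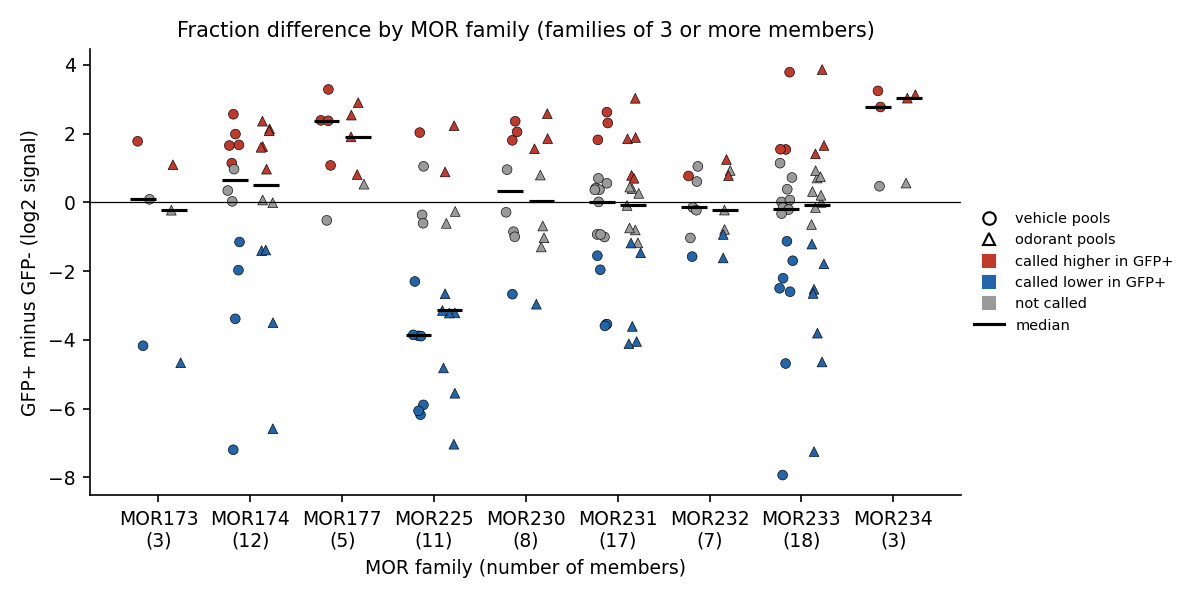
Fitted GFP+ minus GFP- difference (log2 signal, y axis) of each receptor in the MOR families with 3 or more members (x axis), circles for vehicle and triangles for odorant, coloured by call, with the family median as a line. The MOR225 median lies at -3.85 and -3.14 and the MOR177 median at 2.37 and 1.90, whereas MOR174, MOR231 and MOR233 hold points on both sides of zero.

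Members of a family did not all go the same way even as neighbours. Olfr1180 (MOR225) read 10.02, 7.79, 8.29 and 8.48 in GFP+ and 5.72, 5.84, 7.16 and 7.75 in GFP- cells with vehicle, a difference of 2.03 (SE 0.54, adjusted p = 0.026; at least 2.96-fold), and 2.23 with odorant. The receptors around it, Olfr1178, Olfr1181, Olfr1182 and Olfr1184, are of the same family and all passed in the opposite direction. Olfr1179, between Olfr1178 and Olfr1180, was at 1.05 with vehicle, where it did not pass, and higher by 0.88 with odorant. In MOR233, Olfr1220 (3.78) follows Olfr1219, which was lower (-2.60 with vehicle and -2.53 with odorant, GFP+ arrays 12.33 to 13.27 and GFP- arrays 14.92 to 15.53).

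Along the chromosome, the first stretch, from Olfr1141 up to Olfr1170, had 10 higher and 5 lower of 21 members with vehicle, and the stretch from Olfr1171 to Olfr1205 had 3 higher and 9 lower of 23. The stretch from Olfr1206 to Olfr1235 had 4 and 8 of 25, and that from Olfr1236 to Olfr1270 had 9 and 7 of 29. With odorant the 4 counts were 11 and 4, 5 and 9, 4 and 8, and 11 and 8. Of 97 adjacent pairs, 30 had both genes called with vehicle and 18 of these (60%) went the same way, and with odorant 22 of 37 (59.5%) did, beside 49.2% of all pairs of called members in each treatment. Neighbouring pairs share genes, so these shares are a description.

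The vehicle and odorant pools share no animals, and the fraction differences of the 98 receptors were close in both. In both treatments 26 receptors were higher and 28 lower, 0 were called in opposite directions and 37 were called in neither. All 26 receptors called higher with vehicle were among the 31 called higher with odorant (83.9% of the latter), and 28 of 29 lower calls were shared each way (96.6%). Across the 98 receptors, which share arrays within a treatment, Pearson's r between the differences was 0.98, the sign was the same for 87, and the gap between treatments had a median of 0.25 and a maximum of 1.60 (Olfr1215).

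**Figure D4:**
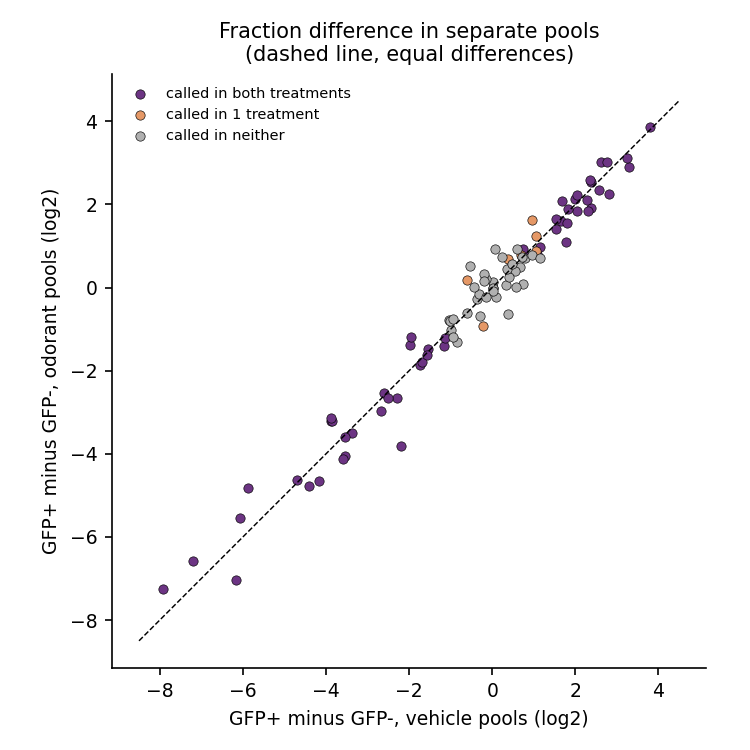
GFP+ minus GFP- difference of each receptor with vehicle (x axis, log2) against the difference with odorant (y axis, log2); the dashed line marks equal differences. Receptors called in both treatments (54) lie near the line from -7.93 to 3.86, and those called in 1 treatment (7) lie near the origin.

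The receptors called in 1 treatment were Olfr1168, Olfr1179, Olfr1204, Olfr1240 and Olfr1249 (higher with odorant), Olfr1260 (lower with odorant) and Olfr1145 (lower with vehicle). Olfr1204, a MOR232 receptor, was at 1.05 with vehicle and 1.25 with odorant (interaction 0.20, adjusted p = 0.98). Olfr1260, also MOR232, was at -0.23 with vehicle and -0.93 with odorant. A call in 1 treatment is no sign of a difference between them, and no member passed the test of that difference.

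The spread between pools was set beside that of other genes, without a test: the median SD within a group was 0.45 to 0.60 over the members, 0.42 to 0.48 over all odorant receptors and 0.23 to 0.27 over all gene probesets. The largest summed spread was that of Olfr1220, whose replicate 2 was the lowest array in both fractions of both treatments; the vehicle and odorant pools of that number are different animals. Olfr1176 came next, and its SD was largest in GFP+ cells (1.56 with vehicle and 1.10 with odorant), where replicate 2 was the only array above background in each treatment (8.08 and 7.67). Olfr1221 (MOR233), the gene after Olfr1220, read 6.11, 3.33, 7.99 and 7.39 in GFP+ and 6.97, 5.46, 8.14 and 6.84 in GFP- cells with odorant, against 7.44, 7.05, 8.41 and 8.76 and 7.33, 7.50, 7.75 and 7.56 with vehicle. Its odorant replicate 2 was the lowest array in both fractions, and the receptor passed in no comparison.

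The next comparison asked whether the odorant changed any receptor of the set in GFP+ cells. None passed: limma called 0 of 98 members and 0 of all gene probesets (percent called 0), and 6 members (4 higher, 2 lower) had an unadjusted p under 0.05, beside 3.82% of all gene probesets. The median difference was 0.01, and the adjusted p was 0.999 for each member. Intervals at 95% reached 0.72 to either side at the median, and the upper bound lay below 1 log2 unit for 73 of the 98, or 56 of the 69 that were above background on all 8 arrays. For the other receptors a rise of 1 log2 unit was within the interval. The whole interval lay within 1 log2 unit in both directions for 52 of the 98, or 41 of the 69. A fall of that size was thus within the interval for some receptors whose upper bound excluded such a rise.

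Olfr1204 had the smallest p in GFP+ cells. Its odorant arrays read 10.81, 10.97, 10.08 and 10.59 and its vehicle arrays 10.49, 8.72, 8.99 and 9.45, a difference of 1.20 (SE 0.35, 95% interval 0.44 to 1.97, adjusted p = 0.999). Vehicle replicate 1 lies within the range of the odorant arrays, and the other 3 lie below it. Olfr1215 (MOR233) went the other way, with 9.04, 7.95, 9.61 and 7.80 against 10.27, 8.89, 10.02 and 10.86, a difference of -1.41 (95% interval -2.43 to -0.38) with overlapping arrays. Olfr1196 was at 0.65 and Olfr1152 at -0.55, both with overlapping arrays, and Olfr1184 (0.77) and Olfr1182 (1.01) were at background in both groups.

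In GFP- cells 0 of 98 members passed, as for all gene probesets (percent called 0), and 11 (5 higher, 6 lower) had an unadjusted p under 0.05, beside 6.84% of all gene probesets. Olfr1202, a MOR232 receptor next to Olfr1205 and Olfr1204, had the smallest p. Its odorant arrays read 10.21, 11.08, 10.40 and 11.08 and its vehicle arrays 9.81, 9.71, 9.49 and 9.86, a difference of 0.97 (SE 0.22, 95% interval 0.49 to 1.46, adjusted p = 0.708) with no overlap. In GFP+ cells the same receptor was at 1.22 (95% interval -0.10 to 2.54), where its arrays overlapped: 9.13, 11.33, 8.87 and 10.28 with odorant and 10.22, 8.56, 8.14 and 7.81 with vehicle.

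Olfr1260 read 12.69, 12.26, 11.79 and 12.14 with odorant and 11.68, 10.89, 11.10 and 11.59 with vehicle in GFP- cells, a difference of 0.91 with no overlap, and was at 11.29 and 11.09 on average in GFP+ cells. Olfr1204 was at 1.00 in GFP- cells, near its 1.20 in GFP+ cells, with 8.81, 9.61, 8.91 and 10.13 against 9.21, 8.08, 7.90 and 8.27. Olfr1211 (0.65) and Olfr1248 (-0.66, its odorant arrays at background) complete the 5 smallest p. The upper bound of the interval lay below 1 log2 unit for 82 of the 98 members, or 66 of the 78 that were above background on all 8 arrays. The whole interval lay within 1 log2 unit in both directions for 58 of the 98, or 52 of the 78. The 2 fractions of a pool share their mice, so a difference seen in both is not seen in separate animals.

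**Figure D5:**
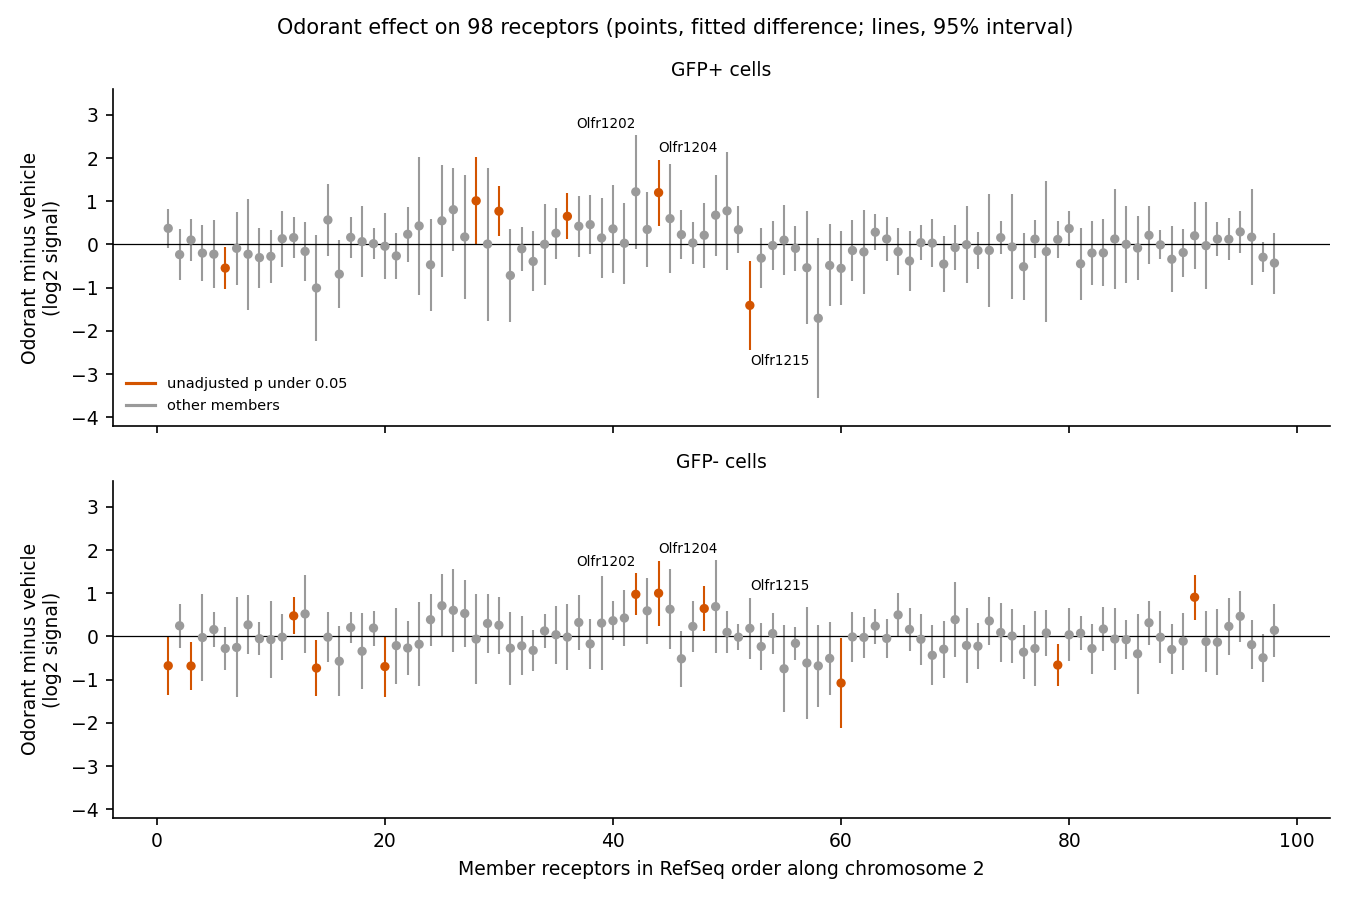
Odorant minus vehicle difference (log2 signal, y axis) of the 98 receptors in chromosome order (x axis), in GFP+ cells above and GFP- cells below; points are fitted differences, lines are 95% intervals, and orange marks an unadjusted p under 0.05. Olfr1202 and Olfr1204 are above zero in both panels (1.22 and 1.20 in GFP+, 0.97 and 1.00 in GFP- cells), and Olfr1215 is below zero in GFP+ cells (-1.41) and near zero in GFP- cells (0.19).

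The interaction, which subtracts the odorant difference of GFP- cells from that of GFP+ cells, asks whether a receptor's share between the fractions shifted with the odorant. No member passed (0 of 98, and percent called 0 over all gene probesets), and 4 had an unadjusted p under 0.05, beside 4.92% of all gene probesets. These were Olfr1141 (1.05) and Olfr1145 (0.79), at background on all 16 arrays, Olfr1248 (0.78), at background in 3 of the 4 groups, and Olfr1215 (-1.60, SE 0.62, 95% interval -2.91 to -0.28, adjusted p = 0.962). Olfr1215 was lower in GFP+ cells in both treatments, at -2.21 with vehicle and -3.80 with odorant. Intervals reached 0.99 to either side at the median, and the upper bound lay below 1 log2 unit for 45 of the 98 members. For the rest an added shift of 1 log2 unit toward GFP+ cells was within the interval. The whole interval lay within 1 log2 unit in both directions for 22 of the 98.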

How the data were processed

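RNA of sorted cells was hybridised to 16 Clariom S arrays, as biotin-labelled cRNA; each sample started with 50 to 100 ng of RNA, per the labels' protocols. The deposited values are log2 probeset signals that the authors made with Affymetrix Expression Console, per the submitters' processing notes; neither its version nor the steps it ran (background, scaling, summary over probes) were given in the sources used here. They were used as deposited. Of 28846 probesets, 6640 controls were left out, which left 22206 gene probesets (19572 with 1 symbol, 0 with several, 2634 with none). All 98 members matched a RefSeq gene table of GRCm38.p6 by gene ID, and 0 symbols changed. The table gave MOR names and the order of genes; no genome build of the array annotation was given in the sources used here.

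Each comparison was fitted with limma 3.58.1 (lmFit and eBayes, R 4.3.3), two-sided, on all gene probesets of its 8 arrays (16 for the interaction), with Benjamini-Hochberg adjustment and a threshold of 0.05, and checked on simulated data. A group was at background for a receptor when none of its 4 arrays exceeded the 95th percentile of the antigenomic controls. Folds are lower bounds where 1 group was at background or had a mean at or under its mean background level. Errors are SE of the fit or SD over 4 arrays, and the number of arrays limits the precision. Sequences came from the RefSeq promoter table of GRCm38.p6; figures used Python 3.11.15 and matplotlib 3.10.9.

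The 2 fractions of a treatment and number are taken to come from the same 3 mice, since 24 mice in groups of 3 give 8 pools for 16 arrays. In residuals over all genes, same-numbered GFP+ and GFP- arrays correlated at 0.11 to 0.16 with vehicle (the best match had the same number for 8 of 8 arrays) and at 0.014 to 0.36 with odorant (5 of 8).

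Named members were, per fraction comparison, the 10 called members with the greatest rise and the 10 with the greatest fall; the 5 smallest p of each odorant effect; the 3 smallest p of the interaction; the 3 largest summed spreads; and Olfr1202, Olfr1204 and Olfr1263. Members called in 1 treatment, neighbours of Olfr1180 and Olfr1220, receptors with a printed promoter and members outside these rules were chosen with their values in view. The members and gene lists were chosen with earlier results of these data known. Alternatives covered scaling, a filter on dim probesets, the variance model, all arrays in 1 fit, the replicate block and single replicates left out.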

Additional observations from a re-analysis of the deposited data

Results flagged for a closer look

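In 4 of 128 groups tested (32 named receptors, 4 groups each), a single array lay far from the other 3 by Dixon's criterion; chance alone gives about 5% of groups. Olfr1153 read 5.77 in GFP- cells of odorant replicate 2, where the other 3 arrays read 8.01 to 8.20. Olfr1228 read 13.29 in GFP- cells of vehicle replicate 2, where the others read 13.82 to 13.93. Olfr1241 read 8.13 in GFP+ cells of vehicle replicate 2, where the others read 6.73 to 6.91, close to background. Olfr1260 read 12.16 in GFP+ cells of vehicle replicate 1, where the others read 10.63 to 10.80.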

How the results depend on the processing

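Of the alternatives, 126 for the counts of called members and of members above background, and 589 for single named members, kept the direction and side of the threshold of the main value, or stayed within 1.5 times the count. That margin is wide. With array medians subtracted, the count of members higher with vehicle went from 26 to 39 and still fell within it. Leaving out single replicates gave 22 to 25 higher and 25 to 30 lower receptors with vehicle, 23 to 24 higher and 25 to 29 lower with odorant, and 0 for the odorant effects and the interaction. With the replicate number as a block (replicate block), 27 were higher and 30 lower with vehicle and 33 higher and 31 lower with odorant, and 0 passed for either odorant effect or the interaction, so the pairing changed no count by more than 1.5 times. Same-numbered odorant and vehicle arrays correlated at -0.034 to 0.254 in GFP+ and -0.104 to 0.305 in GFP- cells (4 and 5 of 8 matched best with their own number). The 2 fractions of the odorant pools also matched for 5 of 8, at 0.014 to 0.356. Whether the numbers pair odorant with vehicle samples therefore cannot be told from this measure. Counts at an unadjusted p under 0.05 moved more: in GFP+ cells the odorant effect had 6 members, 13 without odorant replicate 3 and 15 with the block; in GFP- cells 11, 5 with dim probesets left out, 7 without odorant replicate 1 or 2 and 20 with the block; in the interaction 4, 1 without vehicle replicate 4, 2 without odorant replicate 2 or vehicle replicate 1, and 6 with the block. The cause was not tested. Taking the highest antigenomic control as background left 61 to 82 members above it on all 4 arrays of a group, against 70 to 83.

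Counting pseudogenes as members gave the same set, since the range holds none. The alternative without near-identical copies was not run, and protein identity was not analysed here. Receptors at background have only a bound, the odorant comparisons rest on 4 pools a group, and signal shared between closely related receptors was not tested.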
